A study of Mus musculus with 6 samples.

Results

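A set of 10 immediate early genes, out of 16331 gene probe sets measured, was followed across 6 mouse liver arrays. They are the zinc-finger factors Egr1 and Egr2, the FOS family genes Fos, Fosb and Fosl2, the JUN family genes Jun, Junb and Jund, and the response genes Ier2 and Ier3. Each was found by its gene symbol, and each had 1 probe set. The set was put together because Egr1 had read low on knockout arrays, to see whether the other genes shared this. The difference between genotypes is therefore the measure that chose Egr1, and it is given below as a description. Counts of these genes at the p thresholds of the fit over all probe sets are given too, but they are no evidence for the set.

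The arrays were Affymetrix chips hybridised with biotin-labelled cRNA from liver. The 3 samples numbered 426, 428 and 430 carried a wildtype label, and the 3 numbered 427, 429 and 431 were given as Ugcg-deficient and are called knockout here. Ugcg encodes the enzyme that adds glucose to ceramide, the first step towards most glycosphingolipids. The labels name no age, strain, promoter behind the deletion or individual animals, so the spread between samples may be partly technical. All values are log2 expression, and all differences are knockout minus wildtype on that scale.

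Immediate early genes are transcribed within minutes of a signal, without new protein synthesis, from promoters on which the factors already sit. Growth factors, hormones and stress act through the ERK, JNK and p38 kinases on ternary complex factors such as ELK1, which bind beside serum response factor (SRF) at the CArG box, and on CREB at the cAMP response element. The products are themselves mostly transcription factors: EGR proteins bind GC-rich sites, and FOS and JUN proteins pair as AP-1. In liver the response is known from regeneration after partial hepatectomy, from refeeding and from injury, and the transcripts are short-lived, so that handling of the animal and tissue also moves them.

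The sequences just before the start sites of 3 AP-1 genes are shown. Fos and Junb carry the cAMP response element core TGACG, and Jun carries the AP-1 site variant TGACATCA. No link between the array values and these sequences was tested. They are 150 bases each, ending at the base before the RefSeq start, 5′ to 3′ along the gene, from build GRCm38.p6 (Fos at chr12:85473740-85473889 on the plus strand, Jun at chr4:95052223-95052372 and Junb at chr8:84978749-84978898, both on the minus strand). A stretch of 30 bases from Egr2 (chr10:67537795-67537824, plus strand) follows, which holds a CArG box beside a cAMP response element core. Capitals mark the core TGACG on either strand, the AP-1 site variant TGACATCA and the CArG box.
Fos: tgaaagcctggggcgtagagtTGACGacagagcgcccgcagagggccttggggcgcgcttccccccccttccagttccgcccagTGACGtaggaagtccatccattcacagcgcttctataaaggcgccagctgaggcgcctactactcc
Jun: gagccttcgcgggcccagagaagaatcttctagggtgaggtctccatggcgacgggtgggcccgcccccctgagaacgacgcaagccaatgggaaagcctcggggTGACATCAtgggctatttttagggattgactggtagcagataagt
Junb: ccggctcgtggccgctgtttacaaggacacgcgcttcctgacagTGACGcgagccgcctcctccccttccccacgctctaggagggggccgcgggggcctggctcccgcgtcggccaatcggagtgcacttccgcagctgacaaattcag
Egr2: gtCCATATATGGgcagcgaCGTCAcgggta

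RefSeq promoters of 300 bases (250 before the start and 50 after it) were at hand for 8 of the 10 genes, in 12 entries because Egr2 has 5 starts; Egr1 and Ier2 were not among them. The core TGACG, searched on both strands, was found in Egr2, Fos, Fosb and Junb, and in 20.8% of all 32851 promoters of that length. The full element TGACGTCA, which contains the core, was in none of the 8 genes and in 1.79% of all promoters. TGACATCA was found in Jun, and in 3.62% of all promoters. The AP-1 site, searched as the wide pattern TGANTCA with any base at N, was in none of the 8 (7.81% of all promoters). The EGR site GCGNGGGCG was in Fosb and Fosl2 (5.55% of all), and the CArG box in Egr2 (1.63% of all). A match is a run of letters in this window and does not show that a factor was bound.

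The arrays were alike in scale, with medians from 6.79 to 6.81, and any 2 arrays correlated at 0.988 to 0.994 over all probe sets. The 7 measured hepatocyte markers, among them Alb and Ttr, had list means near the top of the scale. These ran from 13.89 to 13.90 on wildtype and from 13.92 to 13.98 on knockout arrays. The higher knockout means were not shared by the genes: 4 of the 7 differed above 0 and 3 below, with a median of 0.0065. Tat differed by 0.43 and the rest by -0.05 to 0.02, with Alb (-0.03) and Ttr (-0.04) below 0. The groups did not overlap for 2 of the 7 genes (9.57% of all probe sets), Tat (0.43) and Cyp2e1 (-0.05), neither with an adjusted p under 0.05. Wildtype 430 stood apart by its exocrine pancreas transcripts: the mean of 10 such genes was 9.40 there and 6.54 to 6.75 on the other 5 arrays. Knockout 427 stood apart by its heat shock transcripts, described with Jun. Ugcg itself averaged 6.84 ± 0.03 in wildtype and 6.83 ± 0.25 in knockout samples (SD, n = 3 each). It read 6.81, 6.85 and 6.87 on wildtype arrays, 7.12 on knockout 427, and 6.70 and 6.68 on knockout 429 and 431. Knockout 427 was thus above every wildtype array and the other knockout arrays below. Without the probe positions these values do not check the genotype labels. Of all probe sets, 4 of 16331 (0.0245%) passed an adjusted p under 0.05 in limma, a linear model with moderated variance and Benjamini-Hochberg adjustment.

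Egr1 was low on knockout arrays, and no other gene of the set had groups that stood apart in the same way. Ier2 and Junb leaned lower on knockout arrays with overlapping groups, Jun leaned higher, and the other 6 genes differed by less than 0.1 on the log2 scale in either direction. Over the 10 genes, 7 differences were below 0 and 3 above, with a median of -0.045. Over all probe sets 47.5% were below 0 and 52.5% above, with a median of 0.0059. The groups did not overlap for 1 of the 10 genes, against 9.57% of all probe sets (4.47% in the lower direction, as Egr1). None of the 10 passed the adjusted p in limma (0.0245% of all probe sets did), and 3 of them, Egr1, Junb and Ier2, had an unadjusted p under 0.05, all in the lower direction (4.99% of all probe sets, 2.35% in the lower direction). Because Egr1 was picked on this contrast, these counts describe the set and are no evidence for it.

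**Figure D1:**
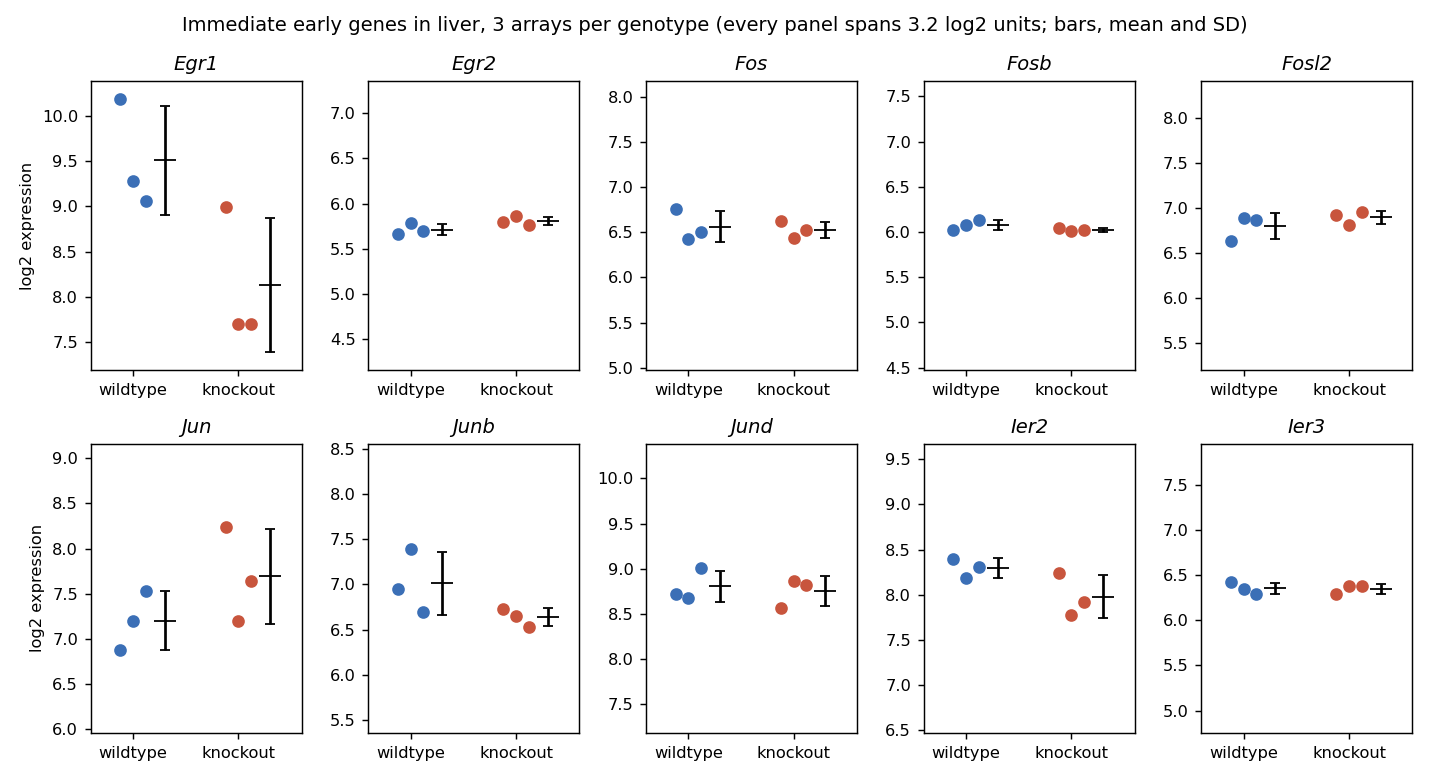
Log2 expression (vertical axis) of the 10 immediate early genes on 3 wildtype and 3 knockout liver arrays. Points are arrays, in the order 426, 428, 430 and 427, 429, 431, and the bars to the right of them give the mean and SD. Every panel covers the same span, so distances can be compared between panels. Egr1 separates the genotypes by a gap of 0.067, and the groups overlap in the other 9 panels.

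Egr1, the zinc-finger factor that carries growth-factor and stress signals to GC-rich promoters, read 10.19, 9.28 and 9.06 on wildtype arrays 426, 428 and 430. It read 8.99, 7.70 and 7.70 on knockout arrays 427, 429 and 431. All 3 knockout values were below all 3 wildtype values, but the highest knockout array, 427, lay only 0.067 below the lowest wildtype array, 430. The group means were 9.51 ± 0.60 and 8.13 ± 0.75 (SD, n = 3 each), a difference of -1.38 (SE 0.38), so that the wildtype mean was 2.60-fold the knockout mean. Of all 16331 probe sets, 2 had a difference as low as that, Egr1 and Phlda1. The spread inside a genotype was of the same order as the difference between genotypes: the arrays of a genotype ranged over 1.13 among wildtype and 1.29 among knockout samples.

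The size of the Egr1 difference varied with the arrays included; its direction could not turn, because the groups do not overlap. Leaving out 1 array gave values from -1.81 (without knockout 427) to -1.04 (without wildtype 426), and leaving out wildtype 430 and knockout 427 together gave -2.04. In whole liver, fewer cells of a type and less RNA per cell cannot be told apart for this or any other gene here. The pancreas transcripts were high on wildtype 430, the wildtype array with the lowest Egr1, and the Egr1 difference was -1.61 without it. The Kupffer cell and macrophage list had all 10 of its 10 genes below 0, none past the limma threshold, with list means from 8.46 to 8.67 in wildtype and from 8.14 to 8.73 on knockout arrays. The 2 arrays with the lowest Egr1, knockout 429 and 431, had Kupffer list means of 8.73 and 8.14. The part of cell content in the Egr1 values was not tested.

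Egr2, the close relative of Egr1 that shares its DNA-binding fingers, read at the bottom of the scale. Its values were 5.66, 5.78 and 5.70 in wildtype and 5.79, 5.86 and 5.77 on knockout arrays, at a mean array percentile of 3.66. The groups overlapped, and the means differed by 0.10 (SE 0.07). Near the lowest value of the table, 5.38, a lower transcript level would hardly be visible, so this probe set could not show whether Egr2 shared the low readings of Egr1.

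The FOS family genes, whose proteins form AP-1 only together with a JUN partner, differed little. Fos, the prototype of the response, read 6.76, 6.42 and 6.50 in wildtype and 6.62, 6.44 and 6.52 on knockout arrays. These groups overlapped almost fully, with a difference of -0.04 (SE 0.10) that turned to 0.06 without wildtype 426. Fosb, which also yields a stable truncated protein, read 6.02, 6.08 and 6.14 against 6.04, 6.01 and 6.02, a difference of -0.05 (SE 0.07). Fosl2, also known as Fra-2, a later and longer-lived member, read 6.64, 6.89 and 6.87 against 6.93, 6.81 and 6.95, a difference of 0.10 (SE 0.09) that was 0.017 without wildtype 426. All 3 lay at modest array percentiles (40.98 for Fos, 16.7 for Fosb and 51.2 for Fosl2), so that small transcript changes could be compressed.

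Among the JUN family genes, Junb and Jun leaned in opposite directions and Jund in neither. Junb, an AP-1 subunit with weaker activation and a restraining effect on growth, read 6.95, 7.39 and 6.70 on the wildtype arrays and 6.73, 6.66 and 6.53 on knockout arrays. Knockout 427 lay 0.029 above wildtype 430, so the groups overlapped by that pair. The means were 7.01 ± 0.35 and 6.64 ± 0.10 (SD, n = 3 each), a difference of -0.37 (SE 0.15). It rested mainly on wildtype 428, without which it was -0.19, and it was -0.58 without both wildtype 430 and knockout 427.

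Jun, the AP-1 subunit activated by JNK that hepatocytes need for regeneration, read 6.88, 7.20 and 7.53 on wildtype arrays 426, 428 and 430. It read 8.24, 7.20 and 7.64 on knockout arrays 427, 429 and 431. The groups overlapped, because knockout 429 lay with wildtype 428 and below wildtype 430. The means were 7.20 ± 0.32 and 7.69 ± 0.52 (SD, n = 3 each), a difference of 0.49 (SE 0.25) that was 0.22 without knockout 427 and 0.74 without knockout 429. Jund, the member that is present in resting cells and changes least on stimulation, read 8.73, 8.68 and 9.01 against 8.56, 8.87 and 8.82, a difference of -0.05 (SE 0.11) that turned to 0.14 without wildtype 430 and knockout 427.

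The heat shock genes moved with Jun across the arrays. These chaperone genes answer to protein damage and temperature, and 5 of the 10 listed were used here. Their list mean was highest on knockout 427 (9.999), followed by wildtype 430 (9.02) and knockout 431 (8.80), with 8.65 on knockout 429, 8.26 on wildtype 426 and 8.20 on wildtype 428. The 3 arrays with the highest Jun were the same 3, and Jun was likewise highest on knockout 427. Hspa1b, an inducible Hsp70 gene, read 11.60 on knockout 427, 9.998 on wildtype 430 and 9.87 on knockout 431, against 8.74 to 9.32 on the other 3 arrays. All 5 genes had differences above 0, the largest being 1.04 for Hspa1b (limma adjusted p = 0.982, and 0.37 without knockout 427), and none passed. Hsph1 differed by 0.71, Hspa1a by 0.67 and Dnajb1 by 0.47 (limma adjusted p = 0.982 each, and 0.29, 0.27 and 0.11 without knockout 427). The part of this pattern in the Jun values was not tested. Egr1 had its lowest values on knockout 429 and 431, whose heat shock means were below that of wildtype 430. Among the wildtype arrays, Egr1 was lowest on wildtype 430, where the heat shock mean was highest. The part of the heat shock pattern in the Egr1 values was not tested either.

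**Figure D2:**
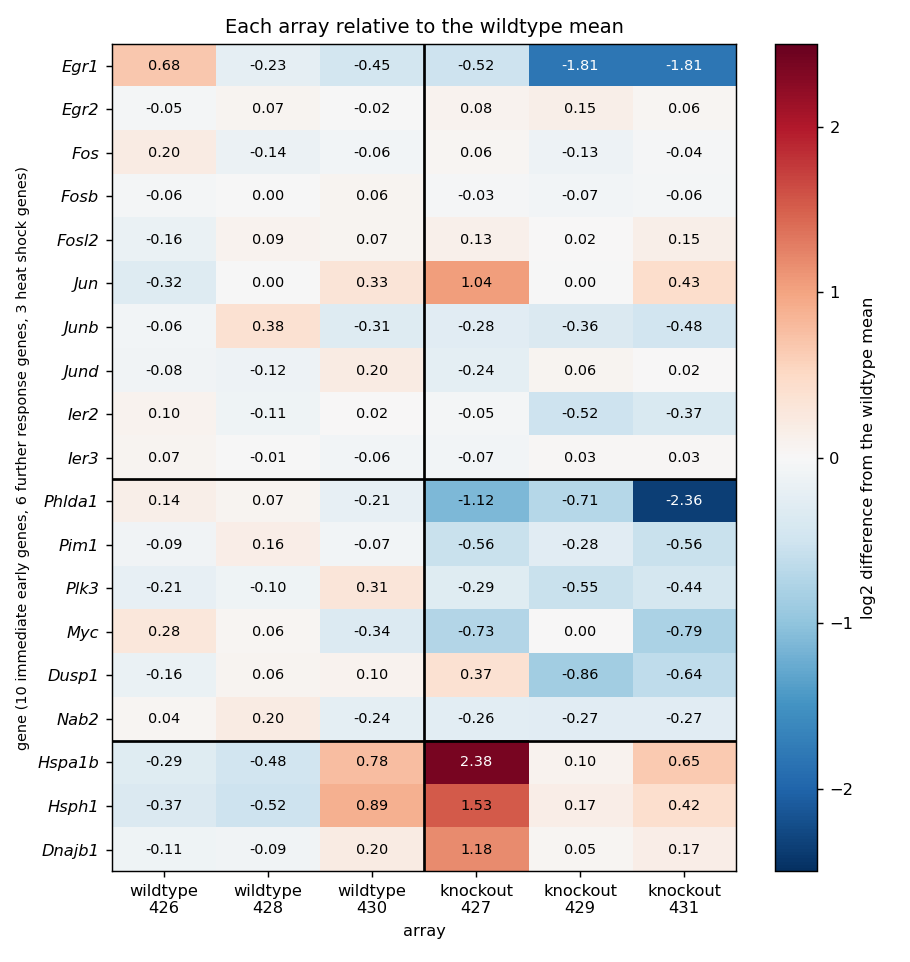
Log2 difference of each array (columns) from the wildtype mean of the gene (rows), for the 10 immediate early genes, 6 further response genes and 3 heat shock genes. Red is above and blue below the wildtype mean, and the number is printed in each cell. Egr1 is at -1.81 on knockout 429 and 431 and at -0.52 on knockout 427, while Jun (1.04) and Hspa1b (2.38) are highest on knockout 427.

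Ier2 and Ier3, immediate early genes outside the EGR and AP-1 families, differed from each other. Ier2, a nuclear protein induced by growth factors, read 8.39, 8.18 and 8.31 in wildtype and 8.24, 7.78 and 7.92 on knockout arrays. Knockout 429 and 431 were below every wildtype array, whereas knockout 427 lay above wildtype 428, so the groups overlapped. The means were 8.30 ± 0.11 and 7.98 ± 0.24 (SD, n = 3 each), a difference of -0.31 (SE 0.12) that was -0.45 without knockout 427 and -0.21 without knockout 429. Ier3, a stress-induced regulator of cell survival also called IEX-1, read 6.42, 6.34 and 6.29 against 6.29, 6.38 and 6.38, a difference of -0.0008 (SE 0.07).

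Of the other 9 genes, Ier2 had the highest Pearson's r with Egr1. Both had their highest value on wildtype 426 and their 2 lowest on knockout 429 and 431, with knockout 427 near the wildtype arrays. Pearson's r between Ier2 and Egr1 over the 6 arrays was 0.93, a description that includes the genotype difference on which Egr1 was chosen. With Egr1, r was 0.63 for Fos, 0.61 for Junb and 0.30 for Fosb, and it was below 0 for Egr2, Fosl2, Jun, Jund and Ier3. Computed on deviations from the genotype means of the same 6 arrays, r with Egr1 was 0.84 for Ier2, 0.83 for Fos and 0.18 for Junb. Such deviations leave only 4 degrees of freedom, so large r values arise more easily than over 6 free values. The sign turned for Fosb (-0.33) and Jun (0.29). It stayed below 0 for Jund (-0.78), Egr2 (-0.41), Fosl2 (-0.41) and Ier3 (-0.04). Outside the set, the 5 named genes most like Egr1 over the 6 arrays were Fbxl20 (r = 0.987), Ktn1, Lrrc4b, Clnk and Slc25a34. Of 15634 named genes compared, 98 (0.627%) had r above 0.9, and these r values also include the genotype difference on which Egr1 was chosen.

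The spread between arrays of 1 genotype, which does not use the contrast that chose Egr1, was wide for some of the genes and narrow for others. The SD around the genotype means was 0.68 for Egr1, at the 99.7th percentile of all probe sets, 0.43 for Jun (99.2nd) and 0.26 for Junb (96.0th). It was 0.19 for Ier2, 0.17 for Jund, 0.14 for Fos and 0.11 for Fosl2, each above the median of 0.10 over all probe sets. It was below that median for Ier3 (0.060), Egr2 (0.056) and Fosb (0.044), 3 genes of low level. Among the 501 probe sets nearest to each in mean level, Egr1 was still at the 99.8th percentile of spread, Jun at the 99.0th and Junb at the 96.0th, and Ier2 at the 78.8th. The wide spread of Egr1, Jun and Junb was thus present within samples of the same label.

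**Figure D3:**
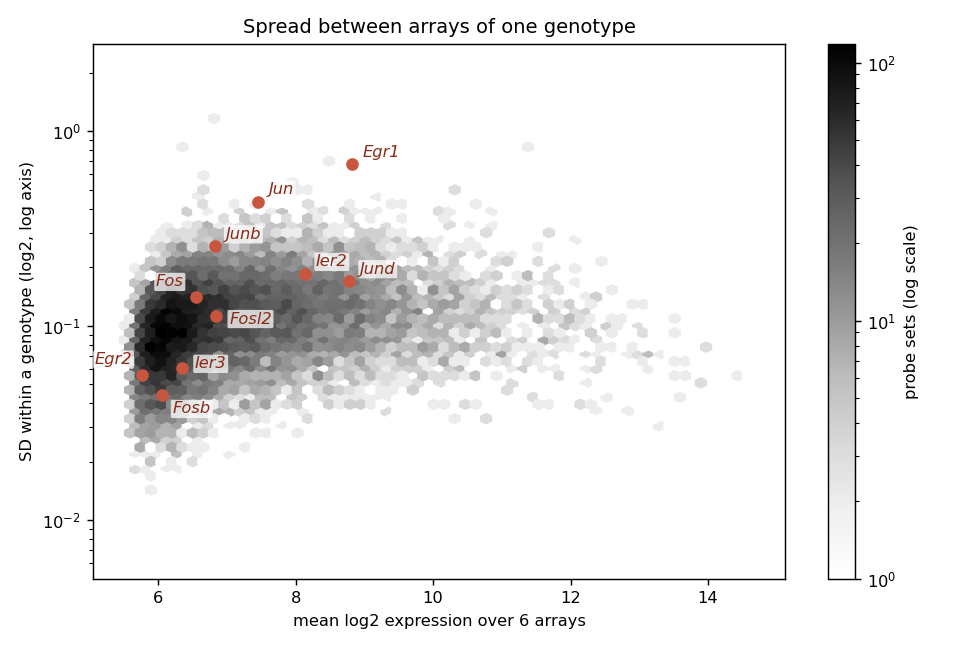
Standard deviation around the genotype means (vertical, log axis, log2 units) against mean log2 expression over 6 arrays (horizontal) for all 16331 probe sets, with grey shading for their density and the 10 immediate early genes in red. Egr1 (0.68) and Jun (0.43) lie on the upper edge of the cloud, and Egr2, Fosb and Ier3 lie low and to the left.

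The members did not share 1 array pattern inside the genotypes. Knockout 427 had the highest Jun and, among the knockout arrays, the highest Egr1, Fos, Junb and Ier2, but the lowest Jund and Ier3 of all 6 arrays. Wildtype 426 was highest for Egr1, Fos, Ier2 and Ier3 and lowest for Egr2, Fosl2 and Jun. The mean deviation of the 10 genes from their genotype means was 0.16 on knockout 427 and between -0.11 and 0.031 on the other arrays. The deviations were not scaled, so genes of wide spread weighed most. The value on knockout 427 rested mainly on Egr1 (8.99 there, knockout mean 8.13) and Jun (8.24 there, knockout mean 7.69). The 5 named genes that followed this mean deviation most closely were Ccdc126 (r = 0.996 over 6 arrays), Supt7l, Secisbp2l, Zdhhc2 and Gatb. Of the 15634 named genes, 344 (2.20%) had r above 0.9. These r values were also computed on deviations with 4 degrees of freedom, where large values arise more easily.

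The wider response was read from 7 lists of related genes, which together held 145 measured genes outside the set. None passed the adjusted p in limma, in which 0.0245% of all probe sets passed, and none passed in any of the 12 other fits. An unadjusted p under 0.05 was reached by 13 of them (8.97%), 5 higher and 8 lower, beside 4.99% of all probe sets (2.64% higher and 2.35% lower). The groups did not overlap for 17 of the 145 (11.7%), 9 higher and 8 lower, beside 9.57% of all probe sets (5.1% higher and 4.47% lower). In the following the values of single genes are described, and none of them passed the test. For every gene named from these lists, the limma adjusted p was 0.670 or higher with all arrays and at least 0.119 in the other fits.

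Of the 15 measured EGR, FOS, ATF and MAF relatives, 13 had differences below 0 and 2 above, with a median of -0.063. Egr3 (-0.14) and Egr4 (-0.13), the remaining EGR genes, had overlapping groups. So did Fosl1 (-0.005) and Atf3 (-0.06), a stress-induced partner of JUN. Mafg, a small MAF protein that pairs with NRF2, was the 1 relative without overlap, at 8.75, 8.65 and 8.42 in wildtype and 8.34, 8.39 and 8.35 on knockout arrays (-0.24).

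Of 49 other measured immediate early genes, 28 were below 0 and 21 above, with a median of -0.054. Phlda1, an early gene of insulin-like growth factor and ERK signalling that encodes a pleckstrin-homology protein, read 11.52, 11.45 and 11.18 in wildtype and 10.26, 10.67 and 9.02 on knockout arrays. The groups were apart, the difference was -1.40 (SE 0.35, limma adjusted p = 0.772), slightly lower than that of Egr1, and it was -0.92 without knockout 431. Pim1, a kinase gene induced through STAT factors, read 7.71, 7.96 and 7.73 against 7.24, 7.52 and 7.24 (-0.47, limma adjusted p = 0.670). The polo-like kinase gene Plk3 was also without overlap (-0.43, and -0.27 without wildtype 430), and Mcl1 by a small margin (-0.06).

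Nr4a1, Myc, Dusp1 and Zfp36, the first genes of that list, had overlapping groups. Nr4a1, an orphan nuclear receptor gene that usually rises with Egr1, differed by 0.006. Myc differed by -0.50 with overlapping groups, from 7.77, 7.54 and 7.15 to 6.76, 7.49 and 6.70. Dusp1, which encodes the phosphatase that switches off p38 and JNK, read 9.19, 9.41 and 9.45 in wildtype and 9.72, 8.49 and 8.71 on knockout arrays. Among knockout samples it was lower on 429 and 431 than on 427, as were Egr1 and Ier2, and its highest value of all was on knockout 427. Zfp36, which encodes the mRNA-decay protein tristetraprolin, differed by -0.27 with overlap, and Klf4 (0.13) and Errfi1 (0.11) were above 0 without overlap.

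The measured kinases and factors that drive the response showed small differences. Of 32, 18 were below 0 and 14 above, with a median of -0.011. Srf read 7.19, 7.18 and 7.17 in wildtype and 7.17, 7.14 and 7.05 on knockout arrays (-0.06), and Elk1 differed by 0.03. Egfr, the epidermal growth factor receptor gene, differed by 0.36 and Erbb3 by -0.12, both with overlap (Egfr by 0.15 without knockout 427). Insr, the insulin receptor gene, was the 1 gene of this list without overlap, with 6.53, 6.54 and 6.56 in wildtype and 6.31, 6.39 and 6.45 on knockout arrays (-0.16, limma adjusted p = 0.982). These are transcript values and do not measure the activity of the kinases.

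Among 17 measured repressors and feedback inhibitors, 8 were below 0 and 9 above. The groups did not overlap for 4 of the 17, 3 higher and 1 lower, beside 9.57% of all probe sets. An unadjusted p under 0.05 in limma was reached by 1, beside 4.99% of all probe sets. Nab2, an EGR1-induced corepressor that binds EGR1 and limits it, read 7.43, 7.58 and 7.15 in wildtype and 7.12, 7.11 and 7.11 on knockout arrays. The groups were apart by a small gap, and the difference was -0.27 (limma adjusted p = 0.960), or -0.17 without wildtype 428. Its paralog Nab1 differed by 0.09 and the ERK-pathway inhibitor Spry2 by 0.10, both above 0 without overlap, as was Lrig1 (0.17), a negative regulator of EGF receptors. Spry4 differed by -0.16 with overlap.

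Of 16 measured genes known as targets of EGR1 or AP-1 in some setting, 7 were below 0 and 9 above, with a median of 0.019. Cdkn1a, which encodes the cell-cycle inhibitor p21, read 8.90, 9.23 and 8.75 in wildtype and 8.29, 8.24 and 8.58 on knockout arrays (-0.59, limma adjusted p = 0.670). Ccnd1, the cyclin D1 gene that AP-1 activates in growing hepatocytes, went the other way, from 7.84, 7.72 and 8.04 to 8.60, 8.63 and 8.15 (0.60, limma adjusted p = 0.670). Icam1 (0.26, and 0.16 without knockout 429) and Pdgfa (0.16) were higher without overlap, and the tissue factor gene F3 (-0.12) and Tgfb1 (0.02) overlapped. The groups did not overlap for 4 of the 16 genes, 3 higher and 1 lower, beside 9.57% of all probe sets. An unadjusted p under 0.05 in limma was reached by 4, 3 higher and 1 lower, beside 4.99% of all probe sets. None passed the adjusted p. The list therefore held genes on both sides and no common direction.

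**Figure D4:**
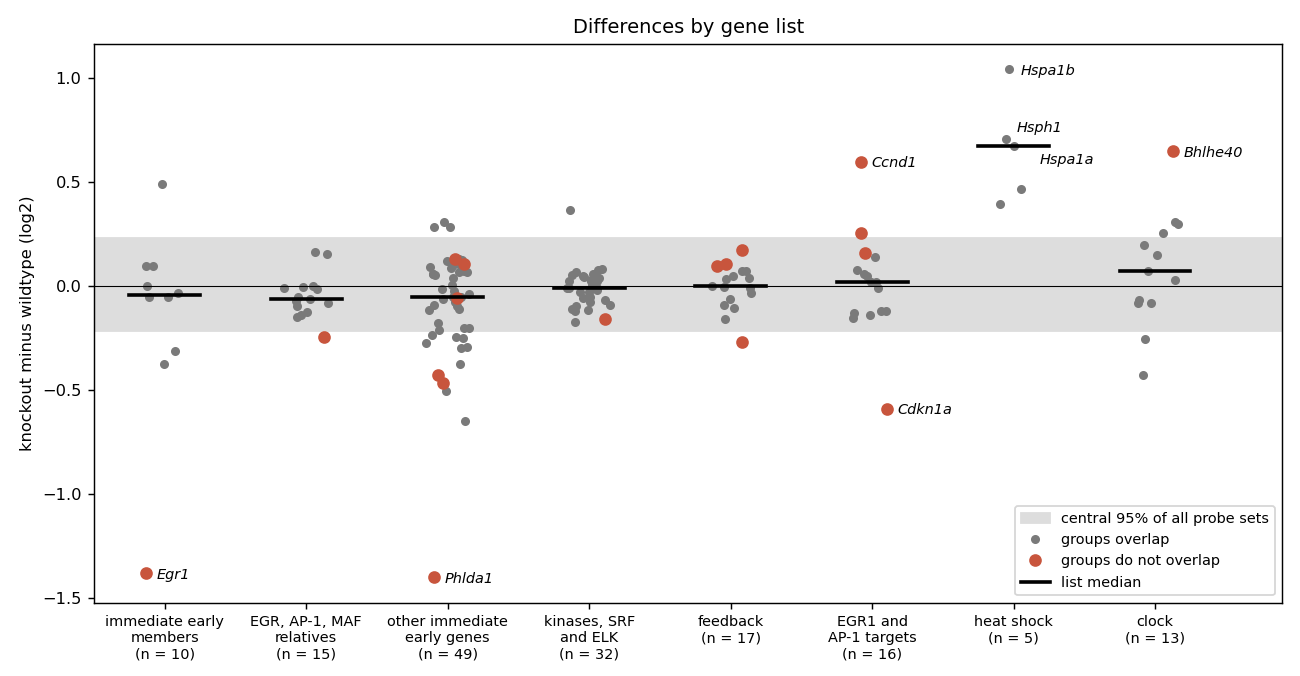
Knockout minus wildtype difference (log2, vertical) of every measured gene in 8 lists, with the immediate early members first. Red points are genes whose groups do not overlap, black lines are list medians, and the grey band holds the central 95% of all probe sets (-0.21 to 0.23). Egr1 (-1.38) and Phlda1 (-1.40) lie far below the band, and the list medians lie between -0.063 and 0.073 except that of the heat shock genes at 0.67.

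Time of day and feeding also move immediate early genes, and the 13 clock genes were read for that reason. Of them 8 were above 0 and 5 below. Per1, which is both a clock gene and an immediate early gene, read 6.81, 6.80 and 6.88 in wildtype and 6.76, 7.32 and 7.33 on knockout arrays (0.31). It was high on the same 2 knockout arrays, 429 and 431, on which Egr1, Ier2 and Dusp1 were low. Per2 (0.20), Dbp (-0.07) and Nr1d1 (-0.26) overlapped, and Bhlhe40, a repressor of the clock that also answers to stress, was higher on knockout arrays without overlap (0.65, limma adjusted p = 0.888, and 0.43 without knockout 427). The labels give no time of sampling, and the part of any such difference was not tested.

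The marker lists of other cells were read as list means, and single genes in them could differ. In the pancreas list 3 of 10 genes were lower on knockout arrays without overlap, beside 4.47% of all probe sets. They were Cpb1 (-1.27), Ctrl (-1.15) and Clps (-0.96), each with a limma adjusted p of 0.982. The size of these differences rested mainly on wildtype 430, where each was highest. Cpb1, for 1, read 6.27, 6.18 and 9.28 on wildtype arrays 426, 428 and 430, and 5.88, 6.10 and 5.93 on knockout arrays. List means in wildtype and knockout arrays were 8.12 to 8.25 and 8.12 to 8.18 for 8 liver endothelium genes, and 8.10 to 8.28 and 8.14 to 8.28 for 8 stellate cell genes. They were 6.40 to 6.50 and 6.42 to 6.80 for 5 cholangiocyte genes, 6.50 to 6.56 and 6.46 to 6.91 for 6 neutrophil genes, and 6.28 to 6.39 and 6.28 to 6.48 for 6 lymphocyte genes. Those of 5 adipose genes were 6.43 to 6.46 and 6.46 to 7.05, with the highest on knockout 431, and those of 3 red blood cell genes 7.43 to 7.54 and 7.35 to 7.44. The Y-linked Eif2s3y read 8.93, 8.60 and 8.55 in wildtype and 8.29, 8.39 and 8.47 on knockout arrays, a difference of -0.31 without overlap (limma adjusted p = 0.951). Xist read 5.81 to 5.97 over the 6 arrays, near the lowest values of the table in both genotypes. The part of these values in the immediate early genes was not tested.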

How the data were processed

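Log2 expression values of 6 liver arrays were used as the authors deposited them. That they are log2 is read from the values, which run from 5.38 to 14.69; how the arrays were corrected, normalized and summarised is not given in the sources used here. Of 16395 probe sets, 64 manufacturer's controls were left out. The platform annotation gave a symbol to 15644 of the remaining 16331, and genes it does not name were not used here. All 10 members matched. Values of different probe sets are not compared as amounts of transcript.

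Knockout minus wildtype was fitted on all 16331 probe sets with limma 3.58.1 (R 4.3.3; lmFit and eBayes, two-sided, Benjamini-Hochberg adjustment, threshold 0.05). SEs are limma's, and SDs are those of the 3 arrays. With 3 against 3 arrays an exact permutation test cannot go below p = 0.1, and none was run. Simulated data with 200 of 16331 probe sets changed, in 10 draws, gave 56.9% recovery of changes of 0.5 and 93.4% of changes of 1 on the log2 scale. The simulated errors were normal and independent, and the changed probe sets were drawn from all levels of spread. These rates therefore do not give the recovery for genes that vary as much as Egr1 (SD 0.68), nor with few changed probe sets. Refits left out single arrays, wildtype 430 with knockout 427, or the dimmest 40% of probe sets, centred arrays on their medians, used quantile normalization, or changed the variance model or array weights. Figures used Python 3.11.15 and matplotlib 3.10.9.

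The members and lists were chosen with earlier results of these data known. From each list the first 4 measured genes and up to 6 genes with the smallest p among those without overlap were named, with all members, Ugcg, the 5 genes most like Egr1 and the 5 most like the members' mean deviation. The further genes named come from the marker lists: Alb, Ttr, Eif2s3y and Xist, and Tat, Cyp2e1, Cpb1, Ctrl and Clps, the latter chosen after their values were seen.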

Additional observations from a re-analysis of the deposited data

How the results depend on the processing

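Of 16331 probe sets 4 passed in limma with all arrays. The count was 8 with array quality weights, 8 without wildtype 430 and knockout 427 together, 3 to 6 under the other scaling, filter and variance settings, and 0 to 4 when 1 array was left out (0 for every array except wildtype 430, with 584 to 1022 at an unadjusted p under 0.05). No member and none of the listed genes passed in any of these fits. Members whose groups did not overlap numbered 1 with all arrays (Egr1), 2 to 3 when 1 array was left out, and 5 without wildtype 430 and knockout 427 together (Egr1, Jun, Junb, Jund and Ier2), where groups of 2 separate more easily by construction. The median difference over the members stayed below 0, between -0.080 and -0.016, and the members below 0 numbered 5 to 7. Egr2, Fosb, Fosl2, Jun, Junb and Ier2 kept their direction in all 10 alternatives for differences (so did Egr1, for which leaving out arrays cannot turn it, as its groups do not overlap), and Fos, Jund and Ier3 turned in 2, 3 and 4 of them. The median spread within a genotype ran from 0.13 to 0.18. No paired analysis was possible because the genotypes share no array number and the labels name no pairs. The number of arrays limits the precision, and no detection calls were at hand for the dim probe sets of Egr2 and Fosb.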
